A study of Saccharomyces cerevisiae with 15 samples.

Results

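Light cells of a yeast strain without mitochondrial DNA were compared with dense cells of the wild type, gene by gene, over 10 of the 15 arrays of the series and 5449 genes of the budding yeast Saccharomyces cerevisiae. The arrays were chosen by their labels, 5 of Rho0 low density cells and 5 of WT high density cells, and a gene with several probe sets was read from the probe set whose mean over the 15 arrays was highest. Both groups are of BY4741, a laboratory strain whose cells are haploid and of mating type a, grown with shaking at 30 °C in rich medium (YPD) with 2% glucose, taken at day 3 and not treated in any other way. WT high density cells have the genotype WT and come from the dense fraction of a Percoll gradient, which sorts cells by buoyant density. Rho0 low density cells have the genotype Rho0, which stands for the loss of mitochondrial DNA, and come from the light fraction. The other 5 arrays hold WT low density cells from the same kind of culture and serve here to place the values. They also entered the choice of probe sets, the background level and the estimate of spread behind each SE and p-value. How the mitochondrial DNA was lost and whether the Rho0 strain is 1 isolate are not given in the sources used here, and the genes on mitochondrial DNA, which would check that label, were not analysed here. Genotype and density differ together in this pair, so their parts in a difference cannot be told apart. In RNA from whole fractions, fewer cells of a type and less RNA per cell cannot be told apart either.

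Mitochondrial DNA of yeast encodes a few subunits of cytochrome bc1, cytochrome c oxidase and ATP synthase and a part of the machinery that translates them. All other subunits are encoded in the nucleus and imported. A cell without this DNA cannot respire and lives by fermentation, while a wild-type culture that has used up its glucose goes on to respire the ethanol it made. In such stationary cultures the dense fraction is known to hold mainly quiescent cells with stores of trehalose and glycogen, and the light fraction mainly nonquiescent ones.

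The signals are log2 values made by RMA, a method that sets the arrays to a common distribution, so each level is relative to the other transcripts of its array. A level of 2.56 was taken as background, since 95% of probe sets for another yeast, Schizosaccharomyces pombe, had means at or under it. The first principal component of the 10 arrays held 87.7% of their variance and separated the groups. Rho0 low density replicate 1 stood farthest out on it at 55.4, against 44.9 to 48.0 for the other Rho0 arrays. The median SD of a gene over 5 arrays was 0.28 in WT high density and 0.17 in Rho0 low density. The poly-A spike-ins, RNAs added to the samples before labelling, were lower in Rho0 low density (difference -0.45, exact two-sided permutation p = 0.0159, adjusted p = 0.0247 over 14 measures). Shifting every array to the same spike-in mean, called poly-A scaling below, therefore moved the median difference of all genes up by 0.45. Its counts are given beside those of the deposited values, since total RNA per cell was not measured. The hybridization controls, another set of control probe sets, differed by -0.22 (exact permutation p = 0.270, adjusted p = 0.343). The part of signal common to a whole array in the spike-in difference was not tested. Probe sets along single transcripts also differed between the groups. The difference of the 3′ and 5′ probe sets was larger in Rho0 low density by 0.70 for RIP1 and by 0.96 for WBP1, and for TDH1 it was smaller (-0.76), each with an exact permutation p = 0.00794 (adjusted p = 0.0139), the smallest that 5 against 5 arrays allow. For ACT1 it differed by 0.04 (exact permutation p = 0.611). The part of RNA integrity in the gene values was not tested.

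Of the 5449 genes, 3944 (72.4%) were called different at an adjusted p under 0.05 in limma, 2067 higher (37.9%) and 1877 lower (34.4%) in Rho0 low density. With poly-A scaling the split was 2727 higher and 1022 lower. The 5 values of the groups did not overlap for 3209 genes (58.9%), 1713 higher and 1496 lower. The median size of a called difference was 1.05 log2. Differences of at least 2-fold were called in 1109 genes upward and 969 downward, of at least 4-fold in 337 and 303, and of at least 16-fold in 24 and 31. Without Rho0 low density replicate 1 the counts of calls were 1977 higher and 1861 lower, and of the genes named here 1, UTP10, lost its call. In what follows, rose and fell describe called genes in Rho0 low density against WT high density, and a difference is a log2 difference of group means ± SE, with 5 arrays a group. Counts of each list are to be read beside the 37.9% of all genes that rose and the 34.4% that fell.

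**Figure D1:**
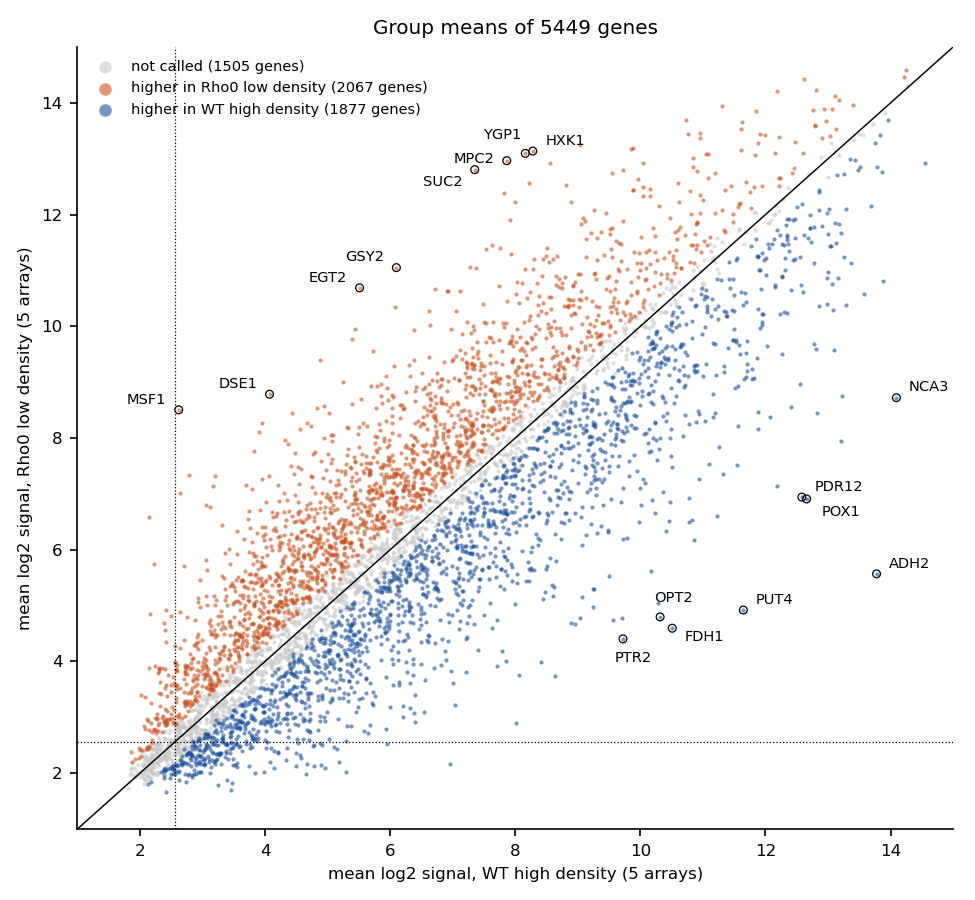
Each point is 1 of 5449 genes, with its mean log2 signal over 5 WT high density arrays on the x axis and over 5 Rho0 low density arrays on the y axis. The solid line marks equal means and the dotted lines the background level of 2.56. Circles mark 8 of the largest rises and 8 of the largest falls. ADH2 and PUT4 lie far below the line, SUC2 and MSF1 far above it, and 1505 genes near it were not called.

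The deepest falls were in genes for using ethanol, fatty acids and poor nitrogen sources. ADH2 encodes the alcohol dehydrogenase that oxidizes ethanol. It read 13.74, 13.83, 13.87, 13.78 and 13.66 on the WT high density arrays and 5.12, 5.60, 5.86, 5.58 and 5.68 on the Rho0 low density arrays. Every Rho0 array lay far below every array of the dense wild-type cells. ADH2 fell by 8.21 ± 0.13, which is 296-fold (adjusted p = 3.29e-19). PUT4, the proline permease, read 11.87, 11.93, 11.35, 11.49 and 11.60 on the WT high density arrays and 4.79, 5.11, 4.89, 4.86 and 4.96 on the Rho0 low density arrays, again with no overlap, and fell by 6.73 ± 0.13 (106-fold, adjusted p = 3.90e-18). POX1, the first enzyme of peroxisomal beta-oxidation, read 12.73, 12.80, 12.52, 12.67 and 12.57 on the WT high density arrays and 6.51, 7.12, 6.91, 6.96 and 7.06 on the Rho0 low density arrays. It fell by 5.75 ± 0.12 (53.7-fold, adjusted p = 1.99e-17). FDH1, which encodes formate dehydrogenase, fell by 5.91 ± 0.13, from 10.51 ± 0.25 to 4.60 ± 0.14 (mean ± SD). All of these but POX1 were under a level of 6 in each Rho0 array.

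Transporters made up much of the rest of this end of the list. PDR12, the pump for weak organic acids, went from 12.58 ± 0.05 to 6.94 ± 0.21 and fell by 5.64 ± 0.16 (49.8-fold). ADY2, the acetate carrier, fell by 5.26 ± 0.14. OPT2, an oligopeptide transporter, fell by 5.52 ± 0.16, and its WT low density mean of 10.22 was close to the dense cells' 10.32. PTR2, which imports small peptides, fell by 5.32 ± 0.22, and its WT low density mean of 10.52 was the highest of the 3 groups. UGA4, the permease for gamma-aminobutyrate, fell by 4.61 ± 0.16. The differences were -5.37 for NCA3, a SUN family gene known for its part in the expression of mitochondrial ATP synthase subunits, -4.68 for CTA1, the peroxisomal catalase, -5.12 for PHM6, a gene of the phosphate response, and -4.93 for SPS100, a spore wall gene. EFM4, a methyltransferase for translation elongation factor, fell by 4.56 ± 0.13. SRL4 reached a mean of 2.17, below background, so its fall was at least 21.0-fold.

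The steepest rise was in a gene of mitochondrial translation. MSF1 encodes the mitochondrial phenylalanyl-tRNA synthetase, which charges tRNA for protein synthesis inside the organelle. It read 2.26, 2.94, 2.53, 2.66 and 2.71 on the WT high density arrays and 8.55, 8.53, 8.57, 8.51 and 8.36 on the Rho0 low density arrays. The dense cells were near the background level and all Rho0 arrays were above 8. MSF1 rose by 5.88 ± 0.16 (59.1-fold, adjusted p = 3.40e-16). MPC2, a subunit of the mitochondrial pyruvate carrier, read 7.77, 7.92, 8.09, 7.97 and 7.58 on the WT high density arrays and 13.02, 12.93, 13.05, 12.89 and 12.93 on the Rho0 low density arrays and rose by 5.10 ± 0.11 (adjusted p = 2.66e-17). The carrier has other subunits, chosen here after their values were seen. MPC1, the common partner, rose by 0.82 ± 0.14, and MPC3, the alternative to MPC2 known from respiring cells, fell by 0.47 ± 0.09, a call lost with poly-A scaling.

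Sugar genes held under glucose repression stood beside them. SUC2 encodes invertase, which splits sucrose outside the cell. It read 7.53, 7.42, 7.68, 7.05 and 7.09 on the WT high density arrays and 13.00, 12.79, 12.72, 12.72 and 12.79 on the Rho0 low density arrays. All Rho0 arrays lay above all WT arrays and the rise was 5.45 (43.7-fold, adjusted p = 1.04e-15). HXK1, a hexokinase, read 8.41, 7.94, 9.20, 7.91 and 7.94 on the WT high density arrays and 13.30, 13.13, 13.08, 13.16 and 13.02 on the Rho0 low density arrays and rose by 4.86 ± 0.20. GSY2, glycogen synthase, read 6.18, 5.96, 6.16, 6.15 and 6.05 on the WT high density arrays and 11.63, 10.89, 10.93, 11.06 and 10.74 on the Rho0 low density arrays and rose by 4.95 ± 0.14 (adjusted p = 8.47e-16). For each of these 3 genes the WT low density mean lay between, at 9.90 for SUC2, 11.39 for HXK1 and 8.83 for GSY2.

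Genes of daughter cells and of the cell surface formed another part of the top 15. EGT2, a wall protein needed when daughters separate, went from 5.51 ± 0.32 to 10.69 ± 0.11 and rose by 5.18 ± 0.14 (36.2-fold). DSE1, named for its expression in daughter cells, rose by 4.71 ± 0.12. YGP1, a secreted glycoprotein made under nutrient limitation, rose by 4.93 ± 0.19, and HPF1, a wall mannoprotein, rose by 4.57 ± 0.12. The remaining genes of the 15 were UBP11 (a ubiquitin protease, 4.55), TSA2 (a peroxiredoxin, 4.52), OPI10 (4.51), CPR5 (a cyclophilin of the endoplasmic reticulum, 4.37), PHR1 (DNA photolyase, 4.37) and AIM17 (4.37). TSA2 in WT high density spread the most of these, up to 6.47 on 1 array, and still did not overlap with the Rho0 arrays.

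**Figure D2:**
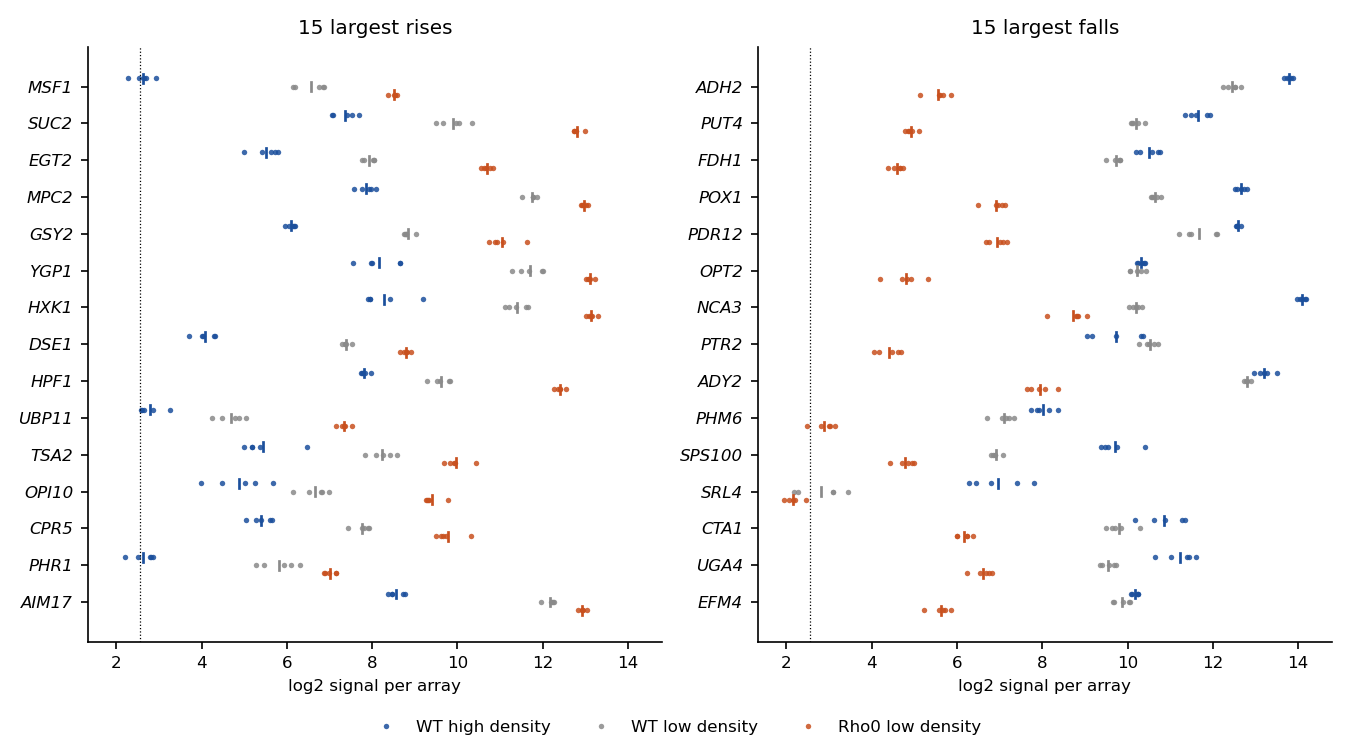
Log2 signal on each array (x axis) of the 15 largest rises (left) and the 15 largest falls (right) in Rho0 low density against WT high density. Points are single arrays, short bars group means and the dotted line the background level. The WT low density arrays mostly lie between, close to the dense cells for OPT2 and EFM4 and above them for PTR2.

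Nuclear genes of the respiratory chain were split much as all genes were, of which 37.9% rose and 34.4% fell. In the chain and ATP synthase 16 of 44 measured genes rose and 17 fell (22 and 9 with poly-A scaling), with the larger side turned or evened by quantile normalization, poly-A scaling and single arrays left out, with a median difference of 0.10 beside 0.03 for all genes. Single complexes held both directions too. Of the 9 genes of cytochrome c oxidase, 3 of 9 rose and 4 fell (3 and 2 with poly-A scaling), with the larger side turned or evened by poly-A scaling. COX9, a small subunit, read 13.34, 13.47, 13.24, 13.37 and 13.42 on the WT high density arrays and 10.78, 11.26, 11.30, 11.09 and 11.21 on the Rho0 low density arrays and fell by 2.24 ± 0.11 (4.72-fold, adjusted p = 2.06e-12). Its arrays fell into separate ranges with no overlap. Subunit 5 comes from a pair of genes used in air and in hypoxia, and these went in opposite directions. COX5A, the aerobic form, fell by 2.02 ± 0.13, and COX5B, the hypoxic form, chosen after its value was seen, rose by 2.02 ± 0.15. COX6, another subunit chosen after its value was seen, differed by -0.28 ± 0.18 and was not called, except as lower with quantile normalization or scaling to the S. cerevisiae median, while its WT low density mean of 10.35 was above both compared groups.

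In ATP synthase 6 of 17 rose and 7 fell (8 and 4 with poly-A scaling), with the larger side turned or evened by poly-A scaling. Of all genes 37.9% rose and 34.4% fell. ATP2, the catalytic beta subunit, read 9.04, 8.78, 8.39, 7.51 and 8.02 on the WT high density arrays and 11.30, 10.86, 10.57, 10.75 and 10.44 on the Rho0 low density arrays and rose by 2.43 ± 0.28 (5.40-fold, adjusted p = 2.14e-07). STF2, a factor that acts with the ATP synthase inhibitor, rose by 2.16 ± 0.14. ATP3, ATP17 and INH1 were chosen after their values were seen. ATP3, the gamma subunit of the rotor, fell by 1.91 ± 0.29, ATP17 of the membrane part fell by 1.94 ± 0.11, and INH1, the inhibitor protein itself, fell by 1.76 ± 0.12.

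In cytochrome bc1 2 of 9 rose and 3 fell (5 and 1 with poly-A scaling), with the larger side turned or evened by quantile normalization, poly-A scaling and single arrays left out. COR1, a core subunit, rose by 1.99 ± 0.12, from 8.71 ± 0.14 to 10.70 ± 0.16. Of the succinate and NADH dehydrogenases, 3 of 7 rose and 3 fell (4 and 2 with poly-A scaling). NDI1, the internal NADH dehydrogenase of yeast, rose by 2.01 ± 0.12, and SDH2, the iron-sulfur subunit of succinate dehydrogenase, fell by 1.53 ± 0.29. Both cytochrome c genes rose. CYC7, the hypoxic form, rose by 1.23 ± 0.15, and CYC1, the aerobic form, rose by 1.10 ± 0.27, the latter chosen after its value was seen. For 31 of the 44 genes of the chain (70.5%) the WT low density mean was above both compared groups, as it was for 17.6% of all genes. With poly-A scaling it was so for 16 (36.4%), against 7.32% of all genes.

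Assembly factors and regulators of respiration leaned upward. COX19, COX18 and HAP4 led a list in which 17 of 34 measured genes rose and 6 fell (23 and 0 with poly-A scaling). Among factors for cytochrome c oxidase assembly, 7 of 16 rose and 2 fell. COX19, which handles copper for the oxidase, rose by 3.60 ± 0.24, and COX18, which inserts a mitochondrially encoded subunit into the membrane, rose by 2.94 ± 0.14. Among bc1 and ATP synthase assembly factors, 6 of 9 rose and 1 fell, with CBP3, needed for cytochrome b, at 1.66. Among transcription factors, 4 of 9 rose and 3 fell, with the larger side turned or evened by scaling to the S. cerevisiae median. HAP4, the activating subunit of the CCAAT-binding complex that drives respiratory genes, rose by 2.79 ± 0.17 (adjusted p = 4.42e-11), ZNF1 rose by 2.05 ± 0.10 and RDS2, a regulator of growth on carbon sources that are not fermented, fell by 0.83 ± 0.12, a call lost with poly-A scaling. ADR1, known as the activator of ADH2 and of peroxisomal genes, was chosen after its value was seen. It differed by 0.11 ± 0.15 and was not called, but it was called higher with poly-A scaling.

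Genes for expressing the mitochondrial genome leaned upward. Of the mitochondrial ribosome, 48 of 71 measured genes rose and 5 fell (55 and 3 with poly-A scaling), against 37.9% and 34.4% of all genes. The rises were spread over both subunits, since in the large subunit 28 of 41 rose and 3 fell and in the small 20 of 30 rose and 2 fell. RSM19, a protein of the small subunit, read 6.39, 6.48, 6.88, 6.70 and 6.62 on the WT high density arrays and 10.72, 10.21, 10.30, 10.16 and 9.99 on the Rho0 low density arrays and rose by 3.66 ± 0.14 (12.7-fold, adjusted p = 6.18e-14). MRPS35 rose by 3.24 ± 0.13, MRPL4 rose by 3.12 ± 0.26 and MRPL32 rose by 2.77 ± 0.21. Against this direction MRPL39 fell by 1.72 ± 0.13.

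For upkeep and expression of mitochondrial DNA, 14 of 32 measured genes rose and 4 fell (21 and 1 with poly-A scaling). In translational activators and RNA processing factors 11 of 21 rose and 0 fell. NCA2 rose by 2.69 ± 0.27, CBS2, an activator of cytochrome b translation, rose by 2.15 ± 0.26, and MRS1, a splicing factor for mitochondrial introns, rose by 1.93 ± 0.18. In replication and packaging, 3 of 9 rose and 2 fell, with the larger side turned or evened by scaling to the S. cerevisiae median and single arrays left out. ILV5, an enzyme of branched chain amino acid synthesis that is also known to help keep mitochondrial DNA, fell by 2.56 ± 0.31. Both transcription genes fell, but with poly-A scaling neither was called, and MTF1, the partner of the mitochondrial RNA polymerase, fell by 0.92 ± 0.18. In the list of mitochondrial protein import, 18 of 33 measured genes rose and 7 fell (22 and 3 with poly-A scaling). SAM50, which inserts proteins into the outer membrane, rose by 2.02 ± 0.22, MGE1, a helper of the import motor, rose by 1.94 ± 0.14, TOM5 of the outer membrane pore rose by 1.85 ± 0.16, and TIM21 of the inner membrane fell by 2.20 ± 0.16.

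The tricarboxylic acid (TCA) cycle showed more rises than falls. Of its genes, 11 of 16 measured genes rose and 4 fell (11 and 4 with poly-A scaling). CIT1, mitochondrial citrate synthase, read 9.32, 9.86, 9.22, 8.72 and 8.96 on the WT high density arrays and 11.99, 11.56, 11.58, 11.62 and 11.59 on the Rho0 low density arrays and rose by 2.45 ± 0.17 (adjusted p = 2.44e-10), with all Rho0 arrays above all WT arrays. IDH2, a subunit of isocitrate dehydrogenase, rose by 1.77 ± 0.25. The enzyme between them went the other way, since ACO1, aconitase, fell by 1.98 ± 0.24. CIT3, another citrate synthase gene, fell by 2.04 ± 0.11. The retrograde pathway is the route by which damaged mitochondria are known to raise nuclear genes that feed glutamate synthesis, and its targets include CIT1, ACO1 and IDH2. In that list 8 of 17 measured genes rose and 5 fell (11 and 4 with poly-A scaling). Among its targets, 5 of 9 rose and 3 fell. CIT2, the peroxisomal citrate synthase most used as a reporter of the pathway, rose by 1.92 ± 0.11, and DLD3, another standard target, differed by 0.36 ± 0.17 and was not called, except as higher with poly-A scaling or without WT high density replicate 1 or 2. Both were chosen after their values were seen. ATO3, an ammonium or acetate exporter, fell by 4.29 ± 0.13, and PDH1, of propionate use, fell by 2.18 ± 0.23. Of the regulators, 3 of 8 rose and 2 fell, with the larger side turned or evened by scaling to the S. cerevisiae median, and BMH1, a 14-3-3 protein, rose by 1.43 ± 0.20.

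Falls prevailed in the use of ethanol, acetate and fatty acids. In ethanol, acetate and glyoxylate use, 8 of 25 measured genes rose and 15 fell (8 and 13 with poly-A scaling). Besides ADH2 and ADY2, FBP1, fructose-1,6-bisphosphatase of gluconeogenesis, read 9.35, 9.71, 9.17, 8.79 and 9.18 on the WT high density arrays and 4.70, 5.16, 5.12, 4.82 and 5.11 on the Rho0 low density arrays and fell by 4.26 ± 0.17 (19.1-fold, adjusted p = 8.40e-14). MLS1, malate synthase of the glyoxylate cycle, fell by 3.91 ± 0.19. Their groups did not overlap. Further genes of these routes were chosen after their values were seen. JEN1, the lactate and pyruvate carrier, fell by 2.98 ± 0.11, ICL1, isocitrate lyase, fell by 1.59 ± 0.14, and PCK1, the other key enzyme of gluconeogenesis, rose by 1.24 ± 0.20. The genes for making acetyl-CoA in the cytosol were split, since ACS2, the synthetase of fermenting cells, rose by 2.72 ± 0.14 and ACS1, the form of respiring cells, chosen after its value was seen, fell by 1.59 ± 0.14.

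In fatty acid oxidation and peroxisomes, 9 of 41 measured genes rose and 23 fell (11 and 18 with poly-A scaling). In beta-oxidation 2 of 20 rose and 16 fell, with a median of -1.69. POT1, the thiolase that ends the cycle, fell by 3.09 ± 0.11. Of peroxins and regulators, 7 of 21 rose and 7 fell, and the balance shifted with every scaling, to 7 and 10 with quantile normalization and with scaling to the S. cerevisiae median, 7 and 6 with scaling to the S. pombe median and 8 and 4 with poly-A scaling, and with most single arrays left out. PEX11, which drives peroxisome division, fell by 3.57 ± 0.12 while PEX6, which recycles the import receptor, rose by 1.82 ± 0.12.

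The list of glycolysis and fermentation held more rises than falls, beside 37.9% and 34.4% of all genes. In glycolysis and fermentation, 14 of 28 measured genes rose and 8 fell (17 and 5 with poly-A scaling). Of its core steps, 7 of 15 rose and 3 fell (9 and 2 with poly-A scaling, 6 and 5 with scaling to the S. cerevisiae median). Their median difference was 0.04, beside 0.03 for all genes. Of genes from pyruvate to ethanol, 3 of 7 rose and 3 fell (4 and 2 with poly-A scaling). In its role of hexose phosphorylation 4 of 6 rose and 2 fell. The falls were in PFK26 and PFK27, kinases that make an activator of glycolysis, chosen after their values were seen (differences of -1.43 and -0.57), and the call of PFK27 was lost with poly-A scaling and without Rho0 replicate 3 or WT high density replicate 1. EMI2, a glucokinase homologue, rose by 2.97 ± 0.10 and GPM2, a homologue of phosphoglycerate mutase, rose by 3.28 ± 0.17, whereas ADH5, a minor alcohol dehydrogenase, fell by 2.38 ± 0.12. In hexose transport and sucrose use, 9 of 28 measured genes rose and 10 fell (10 and 9 with poly-A scaling), with the larger side turned or evened by quantile normalization and poly-A scaling. Of its transporters, 4 of 13 rose and 8 fell. HXT13 rose by 4.31 ± 0.18, against falls in HXT10, which fell by 3.97 ± 0.18, and GAL2, the galactose permease, which fell by 3.96 ± 0.16. Hexose transporters are near copies of each other, so probe sets may share signal between them.

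In trehalose and glycogen metabolism, 16 of 21 measured genes rose and 2 fell (17 and 1 with poly-A scaling), with a median of 1.79. All 7 genes of trehalose synthesis rose, with poly-A scaling too. PGM2, phosphoglucomutase, which supplies both stores, read 9.77, 9.90, 9.78, 9.93 and 10.06 on the WT high density arrays and 13.28, 13.09, 13.24, 13.22 and 13.15 on the Rho0 low density arrays and rose by 3.31 ± 0.11 (adjusted p = 6.24e-15). TPS1, trehalose-6-phosphate synthase, chosen after its value was seen, rose by 2.18 ± 0.20. Of genes for trehalose breakdown 2 of 3 rose and 0 fell, and of genes for glycogen breakdown 2 of 3 rose and 0 fell. Glycogen synthesis was mixed, since 5 of 8 genes rose and 2 fell. Its counts were 5 and 1 with poly-A scaling and 4 and 3 with scaling to the S. cerevisiae median. GDB1, the glycogen debranching enzyme, rose by 2.90 ± 0.20, GPH1, glycogen phosphorylase, rose by 2.89 ± 0.19, and NTH1, neutral trehalase, rose by 1.55 ± 0.11. GLG2, one of the primers of glycogen synthesis, fell by 1.39 ± 0.29.

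The proteasome, which degrades ubiquitin-tagged proteins, had the largest share of rises of the 37 lists described here. Of its genes, 40 of 46 measured genes rose and 1 fell (43 and 0 with poly-A scaling), and the median was 1.93. PRE3, a catalytic subunit of the 20S core, read 7.46, 7.68, 8.29, 7.73 and 7.60 on the WT high density arrays and 11.81, 11.38, 11.44, 11.28 and 11.10 on the Rho0 low density arrays and rose by 3.65 ± 0.16 (12.6-fold, adjusted p = 4.09e-13). The Rho0 values lay above 11 and none of the dense cells' reached 9. In the core 13 of 14 rose and 0 fell, in the base that unfolds substrates 10 of 10 rose and 0 fell, and in the lid that removes ubiquitin 8 of 9 rose and 0 fell. PRE5 of the core rose by 3.16 ± 0.18, RPN2 of the base rose by 2.77 ± 0.17, and RPN7 of the lid rose by 2.40 ± 0.14. Of regulators and assembly factors, ECM29, which tethers core to cap, rose by 3.43 ± 0.17, RPN14 rose by 2.90 ± 0.16, and POC4, an assembly chaperone, was the 1 gene that fell (-0.65), a call lost with poly-A scaling. RPN4, the transcription factor known to drive these genes, was chosen after its value was seen. It differed by 0.04 ± 0.12 and was not called, but it was called higher with poly-A scaling.

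Chaperones rose broadly too. In heat shock proteins and chaperones, 32 of 43 measured genes rose and 4 fell (35 and 2 with poly-A scaling). The cytosolic Hsp70 genes went apart by family. SSA2 read 6.37, 6.51, 6.97, 7.05 and 6.69 on the WT high density arrays and 10.53, 10.65, 10.72, 10.75 and 10.70 on the Rho0 low density arrays and rose by 3.95 ± 0.13 (adjusted p = 5.58e-15), SSA4 rose by 3.71 ± 0.14 and SSA1 rose by 3.32 ± 0.20, while SSB2, the Hsp70 bound to translating ribosomes, fell by 1.46 ± 0.16. SBA1, a cofactor of Hsp90, rose by 2.36 ± 0.20, FES1, an exchange factor of Hsp70, rose by 2.79 ± 0.11, and CCT2 of the chaperonin for actin and tubulin rose by 2.24 ± 0.22. HSP104, the disaggregase, was chosen after its value was seen and rose by 2.50 ± 0.14. In the ubiquitin system 10 of 26 measured genes rose and 9 fell (13 and 5 with poly-A scaling), beside 37.9% and 34.4% of all genes. The larger side was turned or evened by quantile normalization, scaling to the S. cerevisiae median and single arrays left out. UBA1, the activating enzyme at its head, rose by 3.14 ± 0.16 and BUL1, an adaptor of the ligase Rsp5, rose by 3.48 ± 0.16, whereas the conjugating enzymes UBC5 and UBC11 differed by -2.50 and -2.46.

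**Figure D3:**
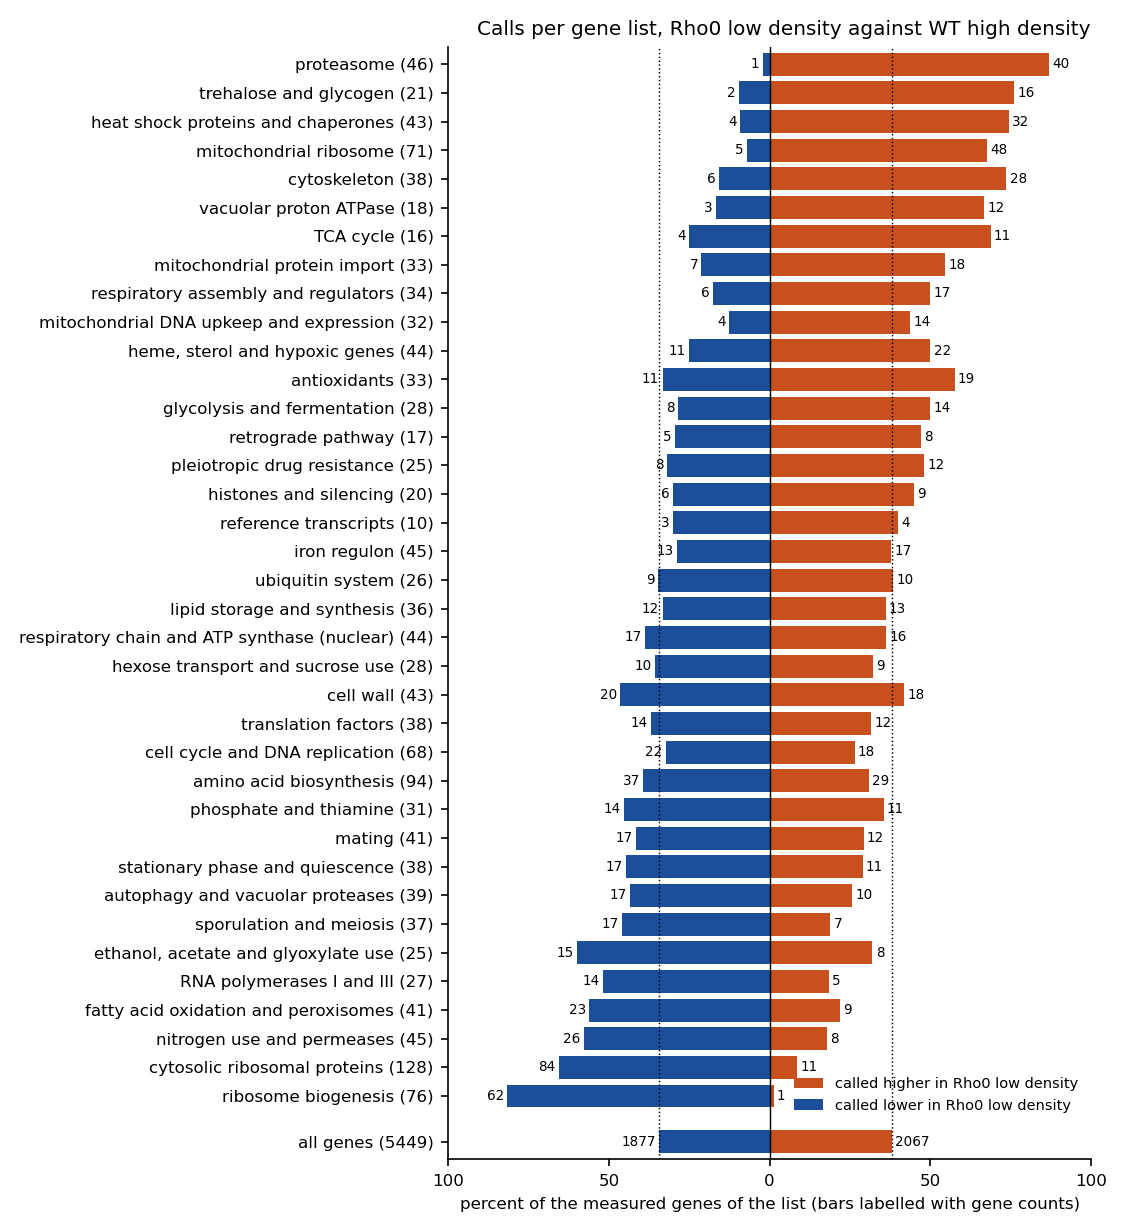
Share of the measured genes of each list (bars, x axis in percent; number of genes in brackets) that were called higher, to the right, or lower, to the left, in Rho0 low density against WT high density, with gene counts at the bar ends. Dotted lines show all 5449 genes (37.9% higher and 34.4% lower). The proteasome (40 of 46 higher) and ribosome biogenesis (62 of 76 lower) lie at the ends.

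Genes that build cytosolic ribosomes were lower in the Rho0 cells. In ribosome biogenesis, 1 of 76 measured genes rose and 62 fell (3 and 34 with poly-A scaling), with a median of -0.88. Of cytosolic ribosomal proteins, 11 of 128 measured genes rose and 84 fell (22 and 51 with poly-A scaling), with a median of -0.81. RPS14B of the small subunit read 10.78, 10.88, 10.94, 10.64 and 10.66 on the WT high density arrays and 6.82, 6.96, 7.05, 6.87 and 6.96 on the Rho0 low density arrays and fell by 3.85 ± 0.11 (14.4-fold, adjusted p = 1.71e-15). RPS11A fell by 3.17 ± 0.15 and RPL24A of the large subunit fell by 2.97 ± 0.18, while RPS2 rose by 1.07 ± 0.10. Many ribosomal proteins come from near-identical gene pairs, so these probe sets may share signal. NOG1, a GTPase of large subunit assembly, went from 5.58 ± 0.33 to 2.75 ± 0.39 and fell by 2.83 ± 0.17, and NMD3, the export adaptor of the large subunit, fell by 2.82 ± 0.12. NOP4 fell by 2.83 ± 0.13. SSF1 ended below background, a fall of at least 5.29-fold, and UTP10 was the 1 gene that rose, by 0.44. The call of UTP10 was lost with array weights, quantile normalization and scaling to the S. cerevisiae median. It was also lost when Rho0 replicate 1, 4 or 5 or WT high density replicate 1 or 4 was left out.

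The probe sets for ribosomal RNA itself did not share 1 direction. The middle part of 25S rRNA was higher by 2.29 and its 3′ part by 0.30 in Rho0 low density, and the 5′ and 3′ parts of 18S rRNA differed by -0.60 and -0.65 (exact permutation p = 0.00794 for each, adjusted p = 0.0139). The 5′ part of 25S rRNA differed by -0.12 (exact permutation p = 0.389). Their part in the ribosomal gene values was not tested. For RNA polymerases I and III, which make rRNA and tRNA, 5 of 27 measured genes rose and 14 fell (7 and 10 with poly-A scaling). RPO31, the largest subunit of polymerase III, read 10.41, 10.22, 10.19, 10.74 and 10.45 on the WT high density arrays and 6.07, 6.46, 6.29, 6.17 and 6.64 on the Rho0 low density arrays and fell by 4.08 ± 0.15 (adjusted p = 2.28e-14), with every Rho0 array below every WT array. RET1, its second subunit, fell by 2.59 ± 0.15, and RPA135 of polymerase I fell by 2.26 ± 0.19, whereas RRN5, an initiation factor of polymerase I, rose by 2.79 ± 0.20. For translation factors, 12 of 38 measured genes rose and 14 fell (18 and 4 with poly-A scaling), with the larger side turned or evened by poly-A scaling and single arrays left out. SUI1, which helps to select start codons, fell by 1.64 ± 0.11, CAF20, a repressor of initiation, fell by 1.54 ± 0.15, STM1, known to preserve idle ribosomes, fell by 1.39 ± 0.20, TIF11 fell by 1.36 ± 0.16 and TIF34 rose by 1.32 ± 0.12.

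Permeases for nitrogen compounds were among the strongest falls. In nitrogen use and permeases, 8 of 45 measured genes rose and 26 fell (16 and 20 with poly-A scaling), and among ammonium, amino acid and peptide permeases 4 of 26 rose and 17 fell. Beside PUT4, OPT2, PTR2 and UGA4, GAP1, the general amino acid permease, fell by 3.69 ± 0.12 and MEP2, the ammonium permease that also acts as a sensor, fell by 3.30 ± 0.14, both chosen after their values were seen. The WT low density means of these permeases differed from each other in where they stood. That of MEP2 was 12.75, above 10.19 in the dense cells, and that of GAP1 was 9.31, below 10.95. UGA1, the first enzyme of gamma-aminobutyrate breakdown, rose by 2.43 ± 0.19, opposite to its permease UGA4.

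In amino acid biosynthesis, 29 of 94 measured genes rose and 37 fell (36 and 27 with poly-A scaling), with the larger side turned or evened by poly-A scaling. The branched chain and sulfur routes held most falls. Of branched chain genes 0 of 11 rose and 7 fell, with ILV3, a dehydratase, at -2.98. Of sulfur genes 7 of 24 rose and 14 fell. SAM1, which makes S-adenosylmethionine, read 9.41, 9.02, 8.96, 9.43 and 9.43 on the WT high density arrays and 5.15, 5.59, 5.24, 5.20 and 5.33 on the Rho0 low density arrays and fell by 3.95 ± 0.13 (adjusted p = 3.63e-15). SUL1, the sulfate permease, fell by 3.61 ± 0.13, MET22 fell by 3.58 ± 0.20 and MET6, methionine synthase, fell by 3.21 ± 0.12. In other routes CPA1, for carbamoyl phosphate in arginine synthesis, fell by 2.82 ± 0.29 and LYS4, homoaconitase, fell by 1.96 ± 0.13, whereas HIS2 of histidine synthesis rose by 2.95 ± 0.18 and PRO3 of proline synthesis rose by 2.69 ± 0.10. In phosphate and thiamine genes, 11 of 31 measured genes rose and 14 fell (15 and 7 with poly-A scaling), with the larger side turned or evened by poly-A scaling. PHO89, a phosphate carrier, fell by 4.29 ± 0.17, GIT1, which takes up glycerophosphoinositol, fell by 2.83 ± 0.13, THI4, of thiamine synthesis, fell by 2.89 ± 0.16, and PHO85, the kinase of the phosphate response, rose by 2.43 ± 0.14.

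Iron, heme and oxidative stress genes moved in both directions, as did all genes, of which 37.9% rose and 34.4% fell. In the iron regulon, 17 of 45 measured genes rose and 13 fell (28 and 8 with poly-A scaling). ARN1, a siderophore carrier, fell by 2.30 ± 0.11, CCC1, the vacuolar iron importer, fell by 2.15 ± 0.12, FTR1 of high affinity uptake fell by 2.05 ± 0.15, FET4 of low affinity uptake rose by 1.80 ± 0.12, and ISD11, for making iron-sulfur clusters, fell by 1.72 ± 0.13. Of genes for iron-sulfur clusters and mitochondrial iron, 9 of 17 rose and 2 fell. In heme, sterol and hypoxic genes, 22 of 44 measured genes rose and 11 fell (29 and 6 with poly-A scaling). HEM4, a late enzyme of the common heme pathway, rose by 3.61 ± 0.13 and HEM12 rose by 2.03 ± 0.09. In sterol synthesis ERG27 rose by 1.85 ± 0.14 and ERG6 rose by 1.71 ± 0.15, and ERG1, squalene epoxidase, fell by 1.37 ± 0.18. AAC3, the ATP carrier used without oxygen, rose by 1.68 ± 0.19. Of the hypoxic genes of the list, 4 of 11 rose and 5 fell, with a median of -0.28. With poly-A scaling the counts were 5 and 4.

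Among antioxidants, 19 of 33 measured genes rose and 11 fell (20 and 8 with poly-A scaling). GLR1, glutathione reductase, read 6.56, 6.35, 6.40, 6.42 and 6.19 on the WT high density arrays and 10.14, 9.88, 9.92, 9.90 and 9.82 on the Rho0 low density arrays and rose by 3.55 ± 0.11 (adjusted p = 1.85e-15), with all Rho0 arrays higher. TRX3, the mitochondrial thioredoxin, fell by 3.52 ± 0.11, and MSN4, a regulator of stress genes, fell by 1.20 ± 0.11. Some pleiotropic drug resistance genes are known to be raised by loss of mitochondrial DNA through the factor Pdr3. Which genes of the list used here answer to Pdr3 was not tested. In that list 12 of 25 measured genes rose and 8 fell (16 and 4 with poly-A scaling). Of its pumps and other targets, 8 of 19 rose and 7 fell (11 and 4 with poly-A scaling). PDR12, described above, had the largest difference of the list and fell. PDR15, a pump of the family, rose by 2.69 ± 0.11, TPO1, a polyamine exporter, rose by 2.03 ± 0.13, LAC1, a ceramide synthase, rose by 1.84 ± 0.12, and YRM1, a regulator, rose by 1.74 ± 0.18. For 14 of the 25 genes (56.0%) the WT low density mean was above both compared groups, beside 17.6% of all genes, and for 7 (28.0%, beside 7.32%) with poly-A scaling.

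Genes linked to stationary phase moved both ways, beside 37.9% rises and 34.4% falls over all genes. In stationary phase and quiescence, 11 of 38 measured genes rose and 17 fell (14 and 10 with poly-A scaling), with the larger side turned or evened by poly-A scaling. SNO1, induced with SNZ1 at nutrient exhaustion, read 9.05, 9.21, 9.57, 9.31 and 9.12 on the WT high density arrays and 5.28, 5.42, 4.91, 5.28 and 5.59 on the Rho0 low density arrays and fell by 3.95 ± 0.15 (adjusted p = 3.12e-14), and SNZ1, chosen after its value was seen, fell by 2.76 ± 0.14. GRE1, a hydrophilin of dry or salty conditions, fell by 2.90 ± 0.11. In the other direction SOL4 rose by 2.92 ± 0.17, TPK2, a catalytic subunit of protein kinase A, rose by 2.05 ± 0.19, and HSP12 and HSP26, small heat shock proteins chosen after their values were seen, rose by 1.81 and 2.03. In autophagy and vacuolar proteases, 10 of 39 measured genes rose and 17 fell (18 and 9 with poly-A scaling), with the larger side turned or evened by poly-A scaling. ATG1, the kinase that starts autophagy, fell by 2.78 ± 0.17 and ATG32, the receptor for removal of mitochondria, fell by 2.30 ± 0.17, while the aminopeptidases of the vacuole rose, APE3 by 3.99 and APE1 by 3.72.

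Cell type markers were read beside these lists. BY4741 is of mating type a, yet the 4 alpha-specific genes averaged 5.48 to 5.94 on the WT high density arrays and 4.28 to 4.55 on the Rho0 arrays, and 1 of them, MF(ALPHA)1, was below background in the Rho0 group. Of 7 a-specific genes 5 rose and 1 fell, their average going from 6.27 to 6.51 on the WT high density arrays to 7.03 to 7.38 on the Rho0 arrays, with BAR1 below background in the dense cells. Of 9 markers of sporulating cells 3 rose and 3 fell, with averages of 4.38 to 4.54 and 4.06 to 4.17, SPO11 and SPR3 below background in the dense cells and SPS1 in the Rho0 cells. Among genes deleted in whole or in part in BY4741, MET17 and URA3 were below background in both groups, LEU2 read 2.67 and 2.70 and HIS3 6.09 and 5.87, and none of the 4 was called. HIS3 was called lower with quantile normalization or scaling to the S. cerevisiae median, and LEU2 higher with poly-A scaling. The part of alpha or sporulating cells in the lists was not tested.

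In the mating list 12 of 41 measured genes rose and 17 fell (20 and 10 with poly-A scaling), with the larger side turned or evened by poly-A scaling. The alpha-specific MF(ALPHA)2, a pheromone gene, fell by 3.00 ± 0.20, STE6, the exporter of a-factor, rose by 1.88 ± 0.14, FIG1 fell by 3.45 ± 0.16 and FUS3, the kinase of the pheromone response, fell by 2.33 ± 0.22, whereas PRM8 rose by 3.65 ± 0.15. In sporulation and meiosis, 7 of 37 measured genes rose and 17 fell (10 and 10 with poly-A scaling), with the larger side turned or evened by poly-A scaling. IME1, the master activator of meiosis, read 7.82, 7.22, 6.65, 6.56 and 6.39 on the WT high density arrays and 4.51, 4.43, 4.32, 4.41 and 4.19 on the Rho0 low density arrays and fell by 2.56 ± 0.23 (adjusted p = 6.07e-09), and the groups did not overlap. RIM4 fell by 2.83 ± 0.22 and SPO19 fell by 3.15 ± 0.19, while DIT1 of the spore wall rose by 0.96 ± 0.13.

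For cell cycle and DNA replication, 18 of 68 measured genes rose and 22 fell (32 and 9 with poly-A scaling), with the larger side turned or evened by scaling to the S. pombe median, poly-A scaling and single arrays left out. CDC28, the cyclin-dependent kinase, rose by 2.94 ± 0.21 and ORC4 of the origin complex rose by 2.56 ± 0.12, while MCD1, the cohesin subunit made in S phase, fell by 2.89 ± 0.13 and POL12 of DNA polymerase alpha fell by 2.51 ± 0.17. For histones and silencing, 9 of 20 measured genes rose and 6 fell (11 and 3 with poly-A scaling). HHT2, a histone H3 gene, rose by 2.24 ± 0.10, SIR2, the silencing deacetylase, rose by 1.44 ± 0.17, RAP1 fell by 1.60 ± 0.14 and HST4 fell by 1.33 ± 0.19.

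In the cell wall list 18 of 43 measured genes rose and 20 fell (22 and 11 with poly-A scaling), beside 37.9% and 34.4% of all genes. The larger side was turned or evened by poly-A scaling and single arrays left out. CTS1, the chitinase that separates daughter from mother, read 8.37, 8.68, 7.90, 7.77 and 8.41 on the WT high density arrays and 12.70, 12.64, 12.47, 12.51 and 12.51 on the Rho0 low density arrays and rose by 4.34 ± 0.15 (20.2-fold, adjusted p = 1.01e-14). PIR1 rose by 3.86 ± 0.10 and SUN4, a septum glucanase, rose by 3.52 ± 0.14. The largest difference of the list was the fall of NCA3, described above (-5.37). Of PIR, SUN and mannoprotein genes, 10 of 19 rose and 8 fell (11 and 5 with poly-A scaling). Of glucan and chitin enzymes, 8 of 24 rose and 12 fell (11 and 6 with poly-A scaling).

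The cytoskeleton was mostly higher, as 28 of 38 measured genes rose and 6 fell (30 and 1 with poly-A scaling). ACT1, actin, read 9.71, 9.46, 10.23, 9.19 and 9.14 on the WT high density arrays and 13.05, 12.85, 12.58, 12.68 and 12.58 on the Rho0 low density arrays and rose by 3.20 ± 0.19 (9.22-fold, adjusted p = 2.38e-11), so that a gene often used as a reference differed without overlap. ARC15 of the Arp2/3 complex rose by 3.72 ± 0.16, TPM1, tropomyosin, rose by 3.51 ± 0.22, and TUB2, beta-tubulin, rose by 2.72 ± 0.16, whereas STU2, a microtubule polymerase, fell by 1.94 ± 0.20. In the vacuolar proton ATPase, 12 of 18 measured genes rose and 3 fell (13 and 0 with poly-A scaling). VMA13 rose by 2.20 ± 0.18, VMA4 rose by 2.13 ± 0.15, VMA5 rose by 1.77 ± 0.16 and VMA2 rose by 1.59 ± 0.19, while VMA21, an assembly factor, fell by 0.89 ± 0.17, a call lost with poly-A scaling. In lipid storage and synthesis, 13 of 36 measured genes rose and 12 fell (16 and 9 with poly-A scaling), with the larger side turned or evened by quantile normalization, scaling to the S. cerevisiae median and single arrays left out. TGL1, a steryl ester hydrolase, rose by 3.01 ± 0.19 and YEH1, of the same function, fell by 3.22 ± 0.16. ELO1, a fatty acid elongase, fell by 2.59 ± 0.18, and ITR2, an inositol carrier, rose by 2.09 ± 0.12.

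Of 10 transcripts used as references in yeast work, 4 of 10 measured genes rose and 3 fell (4 and 1 with poly-A scaling), with the larger side turned or evened by quantile normalization, scaling to the S. cerevisiae median and single arrays left out. TFC1 rose by 1.11 ± 0.14, TRS65 fell by 1.79 ± 0.15, UBC6 fell by 0.81 ± 0.15, ALG9 fell by 0.45 ± 0.19 and TDH3, a glyceraldehyde-3-phosphate dehydrogenase, rose by 0.24 ± 0.09. The calls of UBC6 and ALG9 were lost with poly-A scaling, and that of ALG9 also with scaling to the S. pombe median. The call of TDH3 was lost with quantile normalization, scaling to the S. cerevisiae median and the 10 compared arrays alone. Those of ALG9 and TDH3 were also lost when single arrays of several replicates were left out. TAF10 (-0.04 ± 0.10), FBA1 (-0.15 ± 0.11) and PGK1 (-0.32 ± 0.18) were not called, but FBA1 and PGK1 were called lower with scaling to the S. cerevisiae median, and PGK1 also without WT high density replicate 2.

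The WT low density arrays place these differences, since they share density with one group and genotype with the other. Both of their differences use the same arrays as the main one, so the values are only set side by side. The WT low density arrays also stood apart in some controls. The 5′ part of 25S rRNA averaged 11.36 on them, 7.87 in WT high density and 7.75 in Rho0 low density. The 5′ part of 18S rRNA averaged 14.04, 14.01 and 13.41 in the same order. Genes above background averaged 4860, 5112.8 and 5032.2. The part of these controls in the placing was not tested. The WT low density mean lay between the compared means for 55.0% of the called genes, and for 41.9% with poly-A scaling. Over all 5449 genes it lay between for 2346 with the deposited values. Genes picked for a wide difference leave more room for a mean between, so these counts are description only. Of the 337 genes that rose at least 4-fold the WT low density mean lay between for 310, and the larger step was counted among these 310 only. The step from WT high to WT low density was the larger one for 147 of them and the step from WT low density to Rho0 for 163. Of the 303 that fell at least 4-fold it lay between for 244, and among these 244 the larger steps were 136 and 108 in the same order. With poly-A scaling it lay between for 512 of 614 such rises, with 118 and 394 larger steps among the 512. It lay between for 124 of 181 such falls, with 75 and 49 among the 124. The steps of the lists are given next, first from WT high to WT low density and then from there to Rho0. Over all genes the medians were -0.17 and 0.25, and with poly-A scaling -0.40 and 0.94. Ribosome biogenesis had medians of -0.85 and -0.06 (-1.08 and 0.62 with poly-A scaling), so the sign of its second step depended on the scaling. The proteasome had 0.16 and 1.36 (-0.07 and 2.05), and there the sign of the first step did. In the respiratory chain the medians were 0.78 and -0.87 (0.56 and -0.19). Beta-oxidation had -0.95 and -0.48 (-1.18 and 0.21), where the second step turned. Permeases for nitrogen compounds had 0.30 and -1.44 (0.07 and -0.76).

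Some genes were above the background level in 1 group only, 207 in WT high density and 93 in Rho0 low density. Of genes with a lower mean not above background, 52 were called higher and 119 lower in Rho0 low density without overlap between the groups. For most genes with several probe sets these gave 1 direction, but the pair for HTA2, a histone gene, differed by -0.52 and 1.86 and leaves its direction unsettled.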

How the data were processed

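RNA of 15 samples in 3 groups of 5 was measured on Affymetrix Yeast 2.0 arrays with 100 ng of total RNA per sample and a biotin label. The authors' deposited table holds log2 signals, for which the submitters' processing notes name RMA and Affymetrix Expression Console without versions. Because RMA equalizes the arrays, a shift common to most transcripts does not show in them. All 15 columns were used.

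The annotation named 1 gene for 7244 of 10928 probe sets, several for 1 and none for 3683 (166 of them controls). Of those with 1 gene, 5498 were of S. cerevisiae and 1746 were taken as S. pombe. The 5449 genes include 98 and 17 read by probe sets (s_at and x_at) that may bind related genes, and 47 had several probe sets. Promoter motifs and genes on mitochondrial DNA were not analysed here, and no coordinates are given, since the build is not given in the sources used here.

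One linear model with a mean per group was fitted by limma 3.58.1 under R 4.3.3 (lmFit, then eBayes with no trend) to the 15 arrays, which left 12 residual degrees of freedom. Benjamini-Hochberg adjustment ran over the 5449 genes. A difference had a median SE of 0.15 log2, and having 5 arrays per group limits the precision. The p-values measure the spread between biological replicates, and whether these were separate cultures is not stated further. Where a group's mean was not above background, the fold is a lower bound taken against the background level. Control measures were compared by exact two-sided permutation tests, adjusted over 14. Lists are described by counts and medians beside those of all genes. Of 39 lists, the strain markers and the genes of mitochondrial DNA stand apart from the 37 counted. The members, the lists and the tests were chosen with earlier results of these data known.

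Genes named are the 15 largest called rises and falls without overlap between groups, with a standard name and a higher mean above background. Added are, for each list, its 4 largest called members, the largest against its direction and the largest of each role, and all members of lists of 12 or fewer. Others are said to be chosen after their values were seen. The list names LAP4 and KRE11 were read as APE1 and TRS65.

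The replicate numbers were checked for pairing. Correlations of deviations between arrays of the same number were 0.19, 0.08, -0.03, 0.02 and 0.25, so the numbers were not taken to pair samples. In simulated data with 200 of 5449 genes changed, 48% of changes of 0.5 log2, 94% of 1 and 100% of 2 and 3 were recovered, and 1.72% of calls were false. The data held 3944 called genes, so the adjustment was less strict there and these rates need not carry over. Alternatives were the 10 arrays alone, a replicate block, eBayes with trend and robust, array weights, genes above background only, only unique probe sets, the mean of probe sets, quantile normalization, scaling to the S. cerevisiae, S. pombe or poly-A level, a treat test against 1.5-fold and leaving out each array in turn.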

Additional observations from a re-analysis of the deposited data

Results flagged for a closer look

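Among 494 sets of 5 values (the genes named in the report and the control measures, in each group) 44 held 1 array far from the other 4, where chance alone gives such a gap in about 1 of 20 sets. Rho0 low density replicate 1 was that array in 30 of them, the array that also stood farthest out on the first principal component. It was the highest of its group, with its value and the next given, for ATP3 (4.66 and 3.66), CIT1 (11.99 and 11.62), COR1 (10.99 and 10.66), CPA1 (4.72 and 3.83), CPR5 (10.32 and 9.73), ERG27 (8.65 and 8.27), FBA1 (12.27 and 11.96), FES1 (12.16 and 11.80), HAP4 (9.95 and 9.02), HIS2 (8.18 and 7.67), IDH2 (8.05 and 7.30), MPC1 (8.63 and 8.03), MRPL4 (6.96 and 6.37), OPI10 (9.77 and 9.34), SOL4 (11.87 and 11.14), SSA4 (12.62 and 12.52), STM1 (5.16 and 4.52), SUC2 (13.00 and 12.79), TGL1 (6.31 and 5.63), TIF11 (6.80 and 6.18), UGA1 (11.75 and 11.54) and YRM1 (6.21 and 5.64). It was the lowest of its group, with its value and the next given, for CCC1 (9.21 and 9.56), COX5A (10.71 and 11.32), ERG1 (8.05 and 8.43), HST4 (5.08 and 5.49), ICL1 (7.97 and 8.14), MEP2 (6.33 and 6.94), NCA3 (8.11 and 8.80) and YMR244W (4.66 and 5.09). For none of the 233 genes but UTP10 did leaving this array out change a call. In the other 14 sets the array far from the rest differed. Replicate 2 of Rho0 low density was highest for PHO89 (6.65 and next 6.47). Replicate 5 of Rho0 low density was highest for VMA21 (9.51 and next 9.17) and 18S rRNA 3′ (13.91 and next 13.60) and lowest for MSF1 (8.36 and next 8.51). Replicate 1 of WT high density was highest for COX19 (5.53 and next 4.48) and lowest for ATP17 (11.64 and next 11.95). Replicate 2 of WT high density was highest for PDR12 (12.67 and next 12.56). Replicate 3 of WT high density was highest for TSA2 (6.47 and next 5.36) and lowest for MGE1 (6.55 and next 7.09) and 25S rRNA 5′ (7.65 and next 7.92). Replicate 4 of WT high density was lowest for RPS2 (9.04 and next 9.31). Replicate 5 of WT high density was lowest for ERG6 (3.58 and next 3.86), PIR1 (7.41 and next 7.56) and VMA4 (6.77 and next 7.26).

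Probe sets that the annotation given here does not name were outside the comparison. Of 3517 such probe sets 407 were above the background level in a group, and 164 of these differed between Rho0 low density and WT high density at an adjusted p under 0.05 in limma, 80 higher and 84 lower.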

How the results depend on the processing

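The count of genes called stayed within 1.5 times of 3944 under every alternative run except treat against a 1.5-fold change, which called 2230 genes, 1193 higher and 1037 lower. The fall in this count follows from asking for a larger change. Poly-A scaling, which moved the median difference by 0.45, called 2727 higher and 1022 lower, so that 72.7% of calls were upward against 52.4% with the deposited values, and 6 of the 37 lists had more falls than rises against 17. Scaling to the S. cerevisiae median, which moved the median by -0.14, called 1811 higher and 2197 lower. Leaving out 1 array at a time gave 1977 to 2067 higher and 1796 to 1881 lower. With the replicate block the counts were 2120 and 1927, and none of the 233 genes named changed its call. Since only the WT high density arrays 1 and 5 and the Rho0 array 1 correlated best with their own number, the block is shown as a value only. The share of called genes with the WT low density mean between the others was 55.0% and became 58.8% with scaling to the S. cerevisiae median and 41.9% with poly-A scaling. The cause of these moves was not tested. Of the genes named, 20 changed call under at least 1 alternative, and 1 changed its sign. That was ALG9, at -0.45 with the deposited values and 0.00479 with poly-A scaling. In the simulation, with 200 of 5449 genes changed, 48% of changes of 0.5 log2 were recovered. Far more genes were called in the data, so that rate need not hold for them. The alternative to restrict the fit to genes above background left 5250 genes. Signal near the background level of 2.56 limits 209 genes, which were not above it in either group.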

Other observations

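Genes without a standard name were left out of the naming rule, and some of them differed as strongly as those described. They were chosen after their values were seen. YMR244W went from 10.28 ± 0.40 to 5.05 ± 0.22 and fell by 5.23 ± 0.19 (adjusted p = 2.45e-14), and YDL218W fell by 5.05 ± 0.16. YDL211C, which by its systematic name lies beside UGA4, fell by 4.90 ± 0.18, close to the fall of UGA4 (-4.61). Whether the neighbours share signal was not tested. YOR302W, the short upstream reading frame in the leader of CPA1, was at least 10.5-fold lower, and CPA1 itself differed by -2.82. In the other direction YGL262W, below background in WT high density, was at least 16.3-fold higher, and COS12, a named gene beside it, at least 9.12-fold higher.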
